A study of Homo sapiens with 18 samples.

Results

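The genes described here encode the heterogeneous nuclear ribonucleoproteins (hnRNPs) and related RNA-binding proteins, measured by RNA-SEQ in 2 human brain tumour lines under a direct-current electric field (dcEF). Members were all gene names that start with HNRNP and have at least 1 protein-coding transcript in the deposited table (24 names, HNRNPA1L2, HNRNPCL1, HNRNPCL2, HNRNPCL4 and HNRNPLL among them), plus 13 listed genes of other names, which made 37 of 32490 gene names. U87 mg is an established glioblastoma line and DAOY an established medulloblastoma line. Both were grown as spheroidal aggregates and embedded in Matrigel in electrotaxis channels. They received no field (0 h) or a continuous field of 250 V/m during 2 h or 8 h, with 3 samples for each of the 6 combinations of line and time, numbered as replicates 0, 1 and 2. Each sample was pooled from 3 channels. The authors prepared 4 biological replicates per condition and chose 3 of them for their quality. For DAOY at 8 h they had only 3, since a further sample had poor RNA. Aggregates held for 2 h or 8 h without the field were not analysed here. What the field did and what the hours in a channel did therefore cannot be told apart.

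HnRNPs coat newly made pre-mRNA in the nucleus and help to decide which exons are joined. Each family reads RNA through its own domains: RNA recognition motifs in the A/B, C, D, M and PTB types, quasi-RNA recognition motifs in F and H, and KH domains in HNRNPK and the poly(C)-binding proteins. Many of these genes control their own level by splicing, since their transcripts can take up a cassette exon, a spliced 3' untranslated region or a retained intron. A stop codon that lies well before the last exon junction marks a transcript for nonsense-mediated decay (NMD), while a retained-intron transcript often stays in the nucleus. NMD and intron retention lower the amount of protein without a change in transcription. For that reason the share of a gene's counts in both transcript classes is given here beside the gene sum.

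The 37 genes had 408 transcripts in the table, of which 234 were typed protein_coding, 34 nonsense_mediated_decay (in 16 genes), 94 retained_intron (in 22 genes) and 46 processed_transcript. All 34 NMD transcripts were found with the same type in GENCODE 29 on GRCh38, and in 33 of them the stop codon lay more than 50 bases before the last exon junction. In 14 of the 34 the stop codon was one that a protein-coding transcript of the same gene also used. The following 30-base windows, read 5' to 3' from the GENCODE 29 transcript sequences, show 4 such transcripts. The stop codon is in capitals, and the windows are shown as examples of the kinds of NMD transcript that enter the shares below.

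HNRNPD ENST00000514671: ggtcatcaaaatagctacaaaccatacTAA
HNRNPDL ENST00000630114: aatcaccaaaacaattaccagccatacTAA
HNRNPA1 ENST00000547566: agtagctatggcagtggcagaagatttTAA
HNRNPA2B1 ENST00000360787: gggggttatggtgggaggagccgatacTGA

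In the first pair, which comes from paralogs on chromosome 4, the last 9 bases of the windows were identical and 22 of 30 positions matched. The stop codon of the HNRNPD transcript lay at chr4:82355334-82355336 and that of the HNRNPDL transcript at chr4:82426059-82426061, both on the minus strand of GRCh38. The last exon junction of the transcript lay 137 bases further in HNRNPD and 127 bases further in HNRNPDL. In the NMD transcripts outside the 14 with a shared stop codon, the stop codon was not used by a protein-coding transcript of the gene. The next 5 windows show those of this kind that held the largest shares of their genes' counts, again with the stop codon in capitals.

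HNRNPLL ENST00000272249: ctgaaacttcttgaaagaagcccacttTGA
TARDBP ENST00000439080: aactatccaaaaggtcaagaaagatctTAA
TAF15 ENST00000603393: cagggattatggacccagaacagatgcTGA
TIAL1 ENST00000497671: cataagaatggacaggatcttgaaggcTAA
HNRNPH1 ENST00000510678: ttggcagaggagctggctttgagaggaTGA

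These stop codons lay 807, 295, 414, 969 and 626 bases before the last junction, in the order of the list. Averaged over the 18 samples, the transcripts held 36.4% of the counts of HNRNPLL, 14.6% of TARDBP, 25.3% of TAF15, 5.10% of TIAL1 and 4.23% of HNRNPH1. In TARDBP a larger part of the NMD counts lay in ENST00000621573, which held 21.6% of the gene's counts. Its stop codon was one that a protein-coding transcript also used, and its window is not shown.

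Library sums of estimated counts ranged from 8341976 to 15610886. The spread between replicates, as edgeR's common biological coefficient of variation on gene sums, was 0.180 in U87 mg and 0.256 in DAOY. The samples were prepared as biological replicates, but nothing states how separate the cultures were, so p-values measure the spread between these samples. Replicate 0 at 0 h stood apart from replicates 1 and 2 for the same 4 members in both lines. PTBP1, PCBP1, RALY and EWSR1 had TPM values at 0.716, 0.508, 0.636 and 0.531 of the mean of the other replicates in U87 mg, and at 0.344, 0.385, 0.395 and 0.566 of it in DAOY. Results for these 4 genes against 0 h rest in part on those libraries, and counts below are also given without a library where it moved them. Of the markers of the lines' tissues, VIM and CD44 were abundant in both lines (at 0 h, VIM at 4744 ± 529 TPM in U87 mg and 2405 ± 511 in DAOY, SD, n = 3). The glial markers GFAP, OLIG2 and S100B were low (means of at most 1.91 TPM at 0 h, the value of GFAP in U87 mg, which had 0.246 in DAOY). NES had 7.77 TPM in U87 mg and 0.551 in DAOY at 0 h, and SOX2 had 0.0185 and 4.24. The granule lineage markers NEUROD1 and BARHL1 were near 0 (at most 0.0635 TPM at 0 h), and ATOH1 had no entry. ZIC1 (8.85 TPM in U87 mg and 12.6 in DAOY at 0 h), ZIC2 (4.71 and 9.65) and PAX6 (30.0 and 22.4) were present in both lines. OTX2 was low in DAOY, with 1.97 ± 0.148 TPM at 0 h (SD, n = 3), and was listed at 0 in U87 mg at 0 h. Of the markers of other cells, PTPRC, a leukocyte marker, had group means of at most 0.287 TPM, and EPCAM, an epithelial marker, of at most 1.83 TPM at 0 h. PECAM1, an endothelial marker, had 1.66 TPM in U87 mg at 0 h, while DAOY had 7.50 at that time and 10.3 after 8 h.

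Of the 37 members, 34 passed the filter on low counts and were tested in every comparison of gene sums. The 3 that did not were HNRNPCL1, HNRNPCL2 and HNRNPCL4, which had at most 0.499 TPM in any sample. The 37 genes together took 0.871% to 1.01% of all counts in U87 mg and 1.22% to 1.42% in DAOY, without overlap between the lines. TPM values of the tested members spanned a wide range, from HNRNPA2B1, the most abundant with a mean of 1535 TPM over all samples, to HNRNPA1L2, an intronless relative of HNRNPA1, with 1.03 TPM. Reads of HNRNPA1 and HNRNPA1L2, and of hnRNP genes and their processed pseudogenes, can be hard to separate. The 77 pseudogene names held counts equal to 0.272% of those of the HNRNP members, and the readthrough name HNRNPUL2-BSCL2, which shares exons with HNRNPUL2, had a mean of 651 counts per sample.

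**Figure D1:**
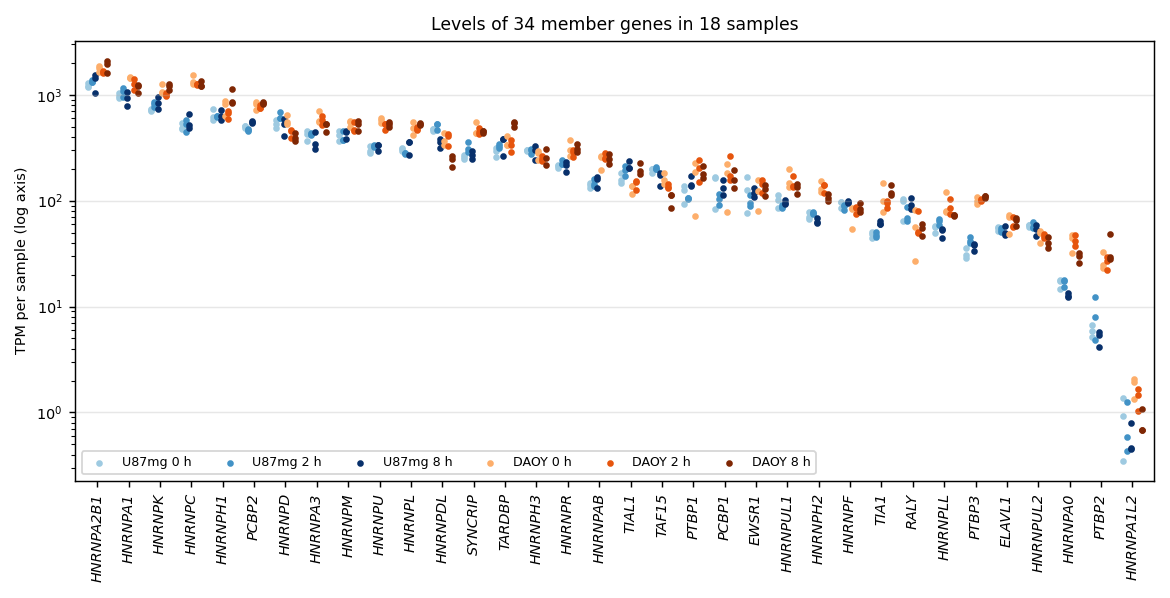
TPM of the 34 tested members (log axis) in each of the 18 samples, ordered by the mean over all samples, with blue points for U87 mg and orange to brown points for DAOY, darker with time. HNRNPA2B1 leads at a mean of 1535 TPM and HNRNPA1L2 is last at 1.03 TPM, and for HNRNPC, PTBP2 and PTBP3 the 9 DAOY points lie above the 9 U87 mg points.

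The comparison of both lines at 0 h asked how the members differ before any field. In DAOY, 16 members were higher and 5 lower than in U87 mg at an adjusted p below 0.05 (quasi-likelihood test of edgeR, Benjamini-Hochberg adjustment across the 16482 genes tested). Of all genes, 60.7% passed the same test (32.8% higher and 27.9% lower in DAOY), so the total of 21 of 34 members is near the background. An unadjusted p below 0.05 was found for 24 members, where 64.3% of all genes had one. The TPM values of the lines did not overlap for 20 members higher and 4 lower in DAOY, where 33.7% and 23.1% of all genes, 56.8% together, were so placed. The median log2 difference was 0.40 over the members and 0.05 over all genes. Of the 34 members, 5 also differed by at least 2-fold, where 41.2% of all genes did. These 5 were PTBP2, PTBP3, HNRNPA0, HNRNPC and TIA1, all higher in DAOY.

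**Figure D2:**
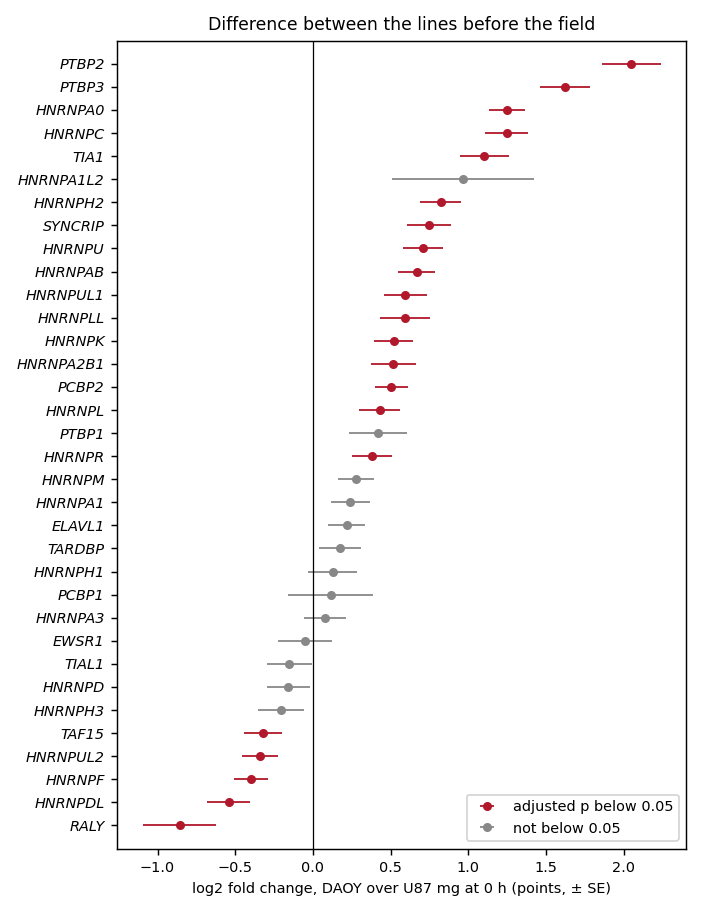
Log2 fold change of DAOY over U87 mg at 0 h for the 34 tested members (points, with bars of 1 SE), red where the adjusted p was below 0.05. PTBP2 at 2.05 and PTBP3 at 1.62 lead on the DAOY side, and RALY at -0.86 is the farthest on the U87 mg side.

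The polypyrimidine tract and CA repeat binding proteins held the largest differences. PTBP1 represses exons beside pyrimidine-rich tracts, PTBP2 takes its place in neurons, and PTBP3 is a further paralog. PTBP2 (chr1:96721665-96823738, plus strand) had 6.69, 5.20 and 5.85 TPM in the U87 mg samples at 0 h and 32.5, 23.1 and 24.9 in DAOY. The lowest DAOY sample was above the highest U87 mg sample, and the log2 difference was 2.05 ± 0.19 (SE, adjusted p = 5.785e-08 by edgeR). PTBP3 (chr9:112217716-112333667, minus strand) had 35.5, 30.9 and 28.6 TPM in U87 mg and 107.9, 93.8 and 99.0 in DAOY, again without overlap. Its log2 difference was 1.62 ± 0.16 (adjusted p = 1.211e-07 by edgeR). PTBP1 itself overlapped between the lines, with 93.7, 136.4 and 125.3 TPM in U87 mg and 71.3, 229.1 and 185.8 in DAOY, and its log2 difference of 0.42 ± 0.19 did not pass (adjusted p = 0.0628 by edgeR). HNRNPL, which binds CA repeats and was the most abundant of this group at a mean of 401 TPM, was higher in DAOY (log2 difference 0.43 ± 0.13), with 308, 316 and 296 TPM in U87 mg and 420, 490 and 550 in DAOY. Its paralog HNRNPLL was also higher in DAOY, by 0.59 ± 0.16 on the log2 scale. In this group, 4 of 5 members were higher in DAOY.

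In the A/B and D type group, 3 of 7 members were higher in DAOY and 1 was lower. HNRNPA0 (chr5:137745651-137754376, minus strand), an intronless gene whose protein binds AU-rich elements, had 14.7, 17.4 and 17.8 TPM in U87 mg and 31.9, 47.9 and 44.5 in DAOY. All 3 DAOY samples lay above the U87 mg samples (log2 difference 1.25 ± 0.12, adjusted p = 7.578e-08 by edgeR). HNRNPA2B1, which binds exonic and intronic splicing silencers, had 1190, 1287 and 1223 TPM in U87 mg against 1645, 1808 and 1892 in DAOY, a log2 difference of 0.52 ± 0.14. HNRNPAB was higher by 0.67 ± 0.12. HNRNPDL, a D-like protein, was the member lower in DAOY, with 455.9, 478.3 and 475.3 TPM in U87 mg and 338.9, 368.4 and 434.3 in DAOY (log2 difference -0.54 ± 0.14, adjusted p = 2.489e-03 by edgeR). HNRNPA1, HNRNPA3 and HNRNPD did not pass in this comparison. For HNRNPA1 and HNRNPA3 the TPM values did not overlap between the lines, while the log2 differences of the count sums were 0.24 ± 0.13 and 0.08 ± 0.13. A TPM sum weights each transcript by its length and a count sum does not, so both scales are given where they part.

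HNRNPC, which binds uridine tracts, and its relative RALY differed in opposite directions between the lines. HNRNPC (chr14:21209136-21269494, minus strand) had 486, 477 and 537 TPM in U87 mg and 1536, 1265 and 1313 in DAOY, so that every DAOY sample lay above every U87 mg sample. Its log2 difference was 1.25 ± 0.14 (adjusted p = 4.923e-07 by edgeR). RALY (chr20:33993646-34108308, plus strand) had 64.5, 102.7 and 100.3 TPM in U87 mg and 27.2, 81.0 and 56.7 in DAOY, and here the groups overlapped. Its log2 difference was -0.86 ± 0.23 (adjusted p = 4.312e-03 by edgeR), and the lowest value of each line was replicate 0, which stood apart as said above. Without replicate 0 of DAOY at 0 h, or any other single library, RALY still passed (log2 differences from -1.18 to -0.62, adjusted p up to 0.0228 by edgeR).

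Among the AU-rich and U-rich binding proteins, TIA1 was higher in DAOY and its paralog TIAL1 and ELAVL1 did not pass. TIA1, a splicing and stress granule protein (chr2:70209444-70248660, minus strand), had 44.0, 50.2 and 48.4 TPM in U87 mg and 145.9, 99.98 and 78.7 in DAOY, a log2 difference of 1.103 ± 0.16 (adjusted p = 1.108e-05 by edgeR). The U87 mg samples lay close together and the DAOY samples were spread widely above them. TIAL1 had a log2 difference of -0.15 ± 0.15, with 181, 155 and 146 TPM in U87 mg and 136, 116 and 138 in DAOY.

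The remaining groups showed smaller differences. HNRNPK, the most abundant KH domain protein, had 738, 705 and 721 TPM in U87 mg and 1257, 1042 and 1071 in DAOY (log2 difference 0.52 ± 0.13), and PCBP2 was higher by 0.51 ± 0.11, whereas PCBP1 did not pass. Of the U type, whose scaffold protein HNRNPU binds chromatin-associated RNA, HNRNPU was higher in DAOY by 0.71 ± 0.13 (329, 295 and 285 TPM against 610, 544 and 577), HNRNPUL1 higher by 0.60 ± 0.14 and HNRNPUL2 lower by 0.34 ± 0.12. With the readthrough name added to it, HNRNPUL2 was also lower (log2 difference -0.45). SYNCRIP (hnRNP Q) and HNRNPR were higher by 0.75 ± 0.14 and 0.38 ± 0.13, and HNRNPM, the most abundant of that group with 457, 414 and 370 TPM in U87 mg and 567, 497 and 554 in DAOY, just missed the threshold (adjusted p = 0.0502 by edgeR). HNRNPH2 was higher by 0.82 ± 0.13 and HNRNPF lower by 0.40 ± 0.11, while HNRNPH1, which binds G-runs and led the F/H group at a mean of 714 TPM, did not pass (618, 742 and 581 TPM in U87 mg, 884, 812 and 633 in DAOY). TAF15, a FET protein, was lower by 0.32 ± 0.12, and TARDBP and EWSR1 did not pass.

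The members that were lower in DAOY depended on the scale more than those that were higher. With limma on log2(TPM + 1), RALY alone of the 5 was lower at an adjusted p below 0.05, and 20 members were higher. HNRNPDL, HNRNPF, HNRNPUL2 and TAF15 kept the negative sign there, with log2 differences of -0.31, -0.34, -0.30 and -0.25. TAF15 lost the call when replicate 2 of DAOY at 0 h, or that of U87 mg, was left out (adjusted p = 0.0685 and 0.0597 by edgeR).

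The order between the lines was repeated at the later times, which are other samples of the same lines. At 2 h, 20 members differed, 16 of them among the 21 of 0 h, and 60.6% of all genes did. At 8 h, 25 members differed, with all 21 among them, and 61.1% of all genes did. Over all times, 16 of the 34 members had all 9 DAOY samples above all 9 U87 mg samples in TPM, where 22.1% of all genes did, and 0 had all 9 below, where 13.9% of genes did. These 16 were the 16 members called higher at 0 h, which the samples at 0 h in part decide.

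The comparison of 2 h with 0 h asked whether the field changed the members early. In neither line did a member pass the test. By edgeR's quasi-likelihood test 0 of 34 members passed in U87 mg and 0 in DAOY, with 0.0% of all genes called in both lines. At an unadjusted p below 0.05 there were 2 members in U87 mg (8.78% of all genes) and 0 in DAOY (2.75% of all genes), and DESeq2 and limma on log2(TPM + 1) also called 0. When the 0 h library of U87 mg that stood apart (replicate 0) was left out, 2 members passed in U87 mg, PTBP3 and PCBP1. The share of all genes that passed in that fit was not counted, so these 2 have no background to be read against. Log2 changes of the members lay between -0.43 and 0.36 in U87 mg and between -0.45 and 0.32 in DAOY.

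PTBP3 and SYNCRIP came closest in U87 mg. PTBP3 had 35.5, 30.9 and 28.6 TPM at 0 h and 44.9, 41.7 and 39.97 at 2 h, without overlap (log2 change 0.36 ± 0.13, adjusted p = 0.495 by edgeR). SYNCRIP, which binds A-rich RNA in translation and editing complexes, had 258, 273 and 247 TPM at 0 h and 290, 310 and 355 at 2 h (log2 change 0.29 ± 0.12, adjusted p = 0.495 by edgeR). In DAOY the smallest adjusted p belonged to HNRNPD and TAF15. HNRNPD, also known as AUF1, had 640, 530 and 558 TPM at 0 h and 392, 456 and 468 at 2 h, and TAF15 had 183, 158 and 145 at 0 h and 145, 136 and 131 at 2 h. Their log2 changes of -0.29 ± 0.14 and -0.22 ± 0.15 had an adjusted p of 0.999 by edgeR. In 8 members of U87 mg the 2 h samples all lay above the 0 h samples in TPM (background 10.8% of genes) and in 2 all below (4.49%, or 15.3% in either direction). In DAOY the counts were 0 (3.59%) and 4 (3.88%, or 7.46% in either direction).

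At 8 h the members changed little in U87 mg. By edgeR's quasi-likelihood test 0 of 34 members passed, where 1.72% of all genes did (0.95% higher), and 6 had an unadjusted p below 0.05, where 15.9% of all genes did. DESeq2 called 1 member, PTBP1, and limma on log2(TPM + 1) called 0. PTBP1 had 93.7, 136.4 and 125.3 TPM at 0 h and 139.8, 138.7 and 169.6 at 8 h (log2 change 0.52 ± 0.15, adjusted p = 0.111 by edgeR and 0.0387 by DESeq2). All 8 h samples lay above the 0 h samples, of which replicate 0 was the lowest. Without that library the log2 change of PTBP1 was 0.35. TIAL1 had 181, 155 and 146 TPM at 0 h and 204, 238 and 205 at 8 h, also without overlap (log2 change 0.44 ± 0.13, adjusted p = 0.114 by edgeR). When replicate 0 of 0 h was left out, TIAL1 was the 1 member that passed (adjusted p = 0.0302 by edgeR), and PTBP1 did not. For that fit, too, the share of all genes that passed was not counted. Over the members the median log2 change was 0.11, against 0.00 over all genes, and the extremes were -0.51 and 0.52.

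In DAOY at 8 h, 1 of 34 members passed by edgeR's quasi-likelihood test, where 5.85% of all genes did (2.34% higher and 3.5% lower). This was TARDBP, which encodes TDP-43, a protein that binds UG-rich RNA and regulates its own transcript. TARDBP (chr1:11012344-11026420, plus strand) had 338, 339 and 404 TPM at 0 h, 290, 374 and 336 at 2 h and 549, 547 and 502 at 8 h. The 8 h samples all lay above the 0 h and 2 h samples, which overlapped each other. The log2 change at 8 h was 0.65 ± 0.14, or 1.57-fold (adjusted p = 0.0267 by edgeR), and so under the 2-fold criterion of the study. In U87 mg, TARDBP had 312, 292 and 261 TPM at 0 h, 327, 341 and 314 at 2 h and 264, 383 and 386 at 8 h, where the 8 h samples overlapped both other groups (log2 change 0.29 ± 0.13, adjusted p = 0.308 by edgeR). The difference between the changes of both lines was 0.37 ± 0.19 and did not pass (adjusted p = 0.620 by edgeR).

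The TARDBP call in DAOY was close to the threshold. It was lost without replicate 1 or 2 of 0 h, replicate 2 of 2 h, or any one of the 3 replicates of 8 h, with adjusted p from 0.0560 to 0.113 by edgeR and log2 changes from 0.59 to 0.73. Without the library that stood apart, replicate 0 of 0 h, it held (log2 change 0.65, adjusted p = 0.0405 by edgeR). By limma on log2(TPM + 1) its adjusted p was 0.0539. The count of members called was 2 with DESeq2 (TARDBP and TAF15) and 2 with limma (TIAL1 and TAF15).

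**Figure D3:**
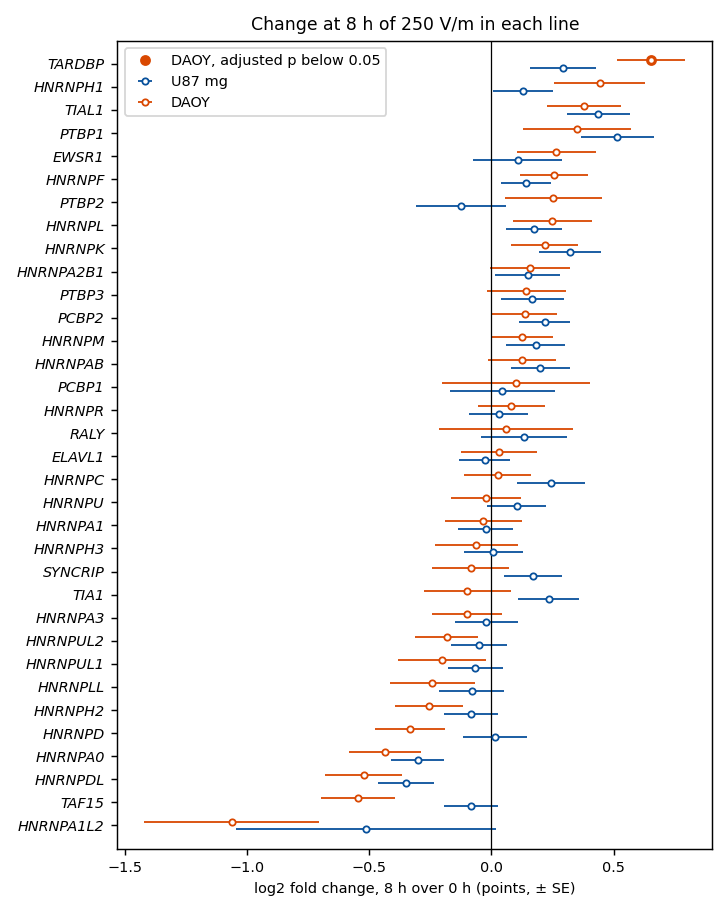
Log2 fold change of 8 h over 0 h for the 34 tested members in U87 mg (blue) and DAOY (orange), points with bars of 1 SE, filled where the adjusted p was below 0.05, ordered by the DAOY value. TARDBP in DAOY at 0.65 is the 1 filled point, and HNRNPA1L2, with under 3 TPM in every sample, is lowest in both lines at -1.06 and -0.51.

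Other members of DAOY had an unadjusted p below 0.05 (8 with TARDBP, where 22.7% of all genes did) and did not pass the adjusted test. TAF15 had 183, 158 and 145 TPM at 0 h and 113, 112 and 84.4 at 8 h, without overlap (log2 change -0.55 ± 0.15, adjusted p = 0.0628 by edgeR). HNRNPDL had 339, 368 and 434 TPM at 0 h and 208, 249 and 262 at 8 h (log2 change -0.52 ± 0.16, adjusted p = 0.0815 by edgeR). The same gene had 456, 478 and 475 TPM in U87 mg at 0 h and 315, 361 and 383 at 8 h (log2 change -0.35 ± 0.12, adjusted p = 0.159 by edgeR). In both lines the 8 h samples of HNRNPDL lay below all 0 h samples. TIAL1 had 136, 116 and 138 TPM at 0 h and 181, 225 and 192 at 8 h in DAOY (log2 change 0.38 ± 0.15). In DAOY, 2 members had all 8 h samples above all 0 h samples in TPM (8.86% of all genes) and 8 had all below (15.0% of all genes), namely HNRNPA1, HNRNPA1L2, HNRNPA3, HNRNPD, HNRNPDL, HNRNPH2, HNRNPLL and TAF15. In U87 mg the counts were 5 (5.8% of all genes) and 2 (10.2% of all genes).

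A fit with an interaction term over the 18 samples asked if the 8 h change of a member depended on the line. By edgeR's quasi-likelihood test 0 of 34 members passed, where 0.0121% of all genes did, and DESeq2 also called 0. At an unadjusted p below 0.05 there was 1 member (8.88% of all genes), TAF15, whose change in DAOY minus that in U87 mg was -0.45 ± 0.17 (log2, adjusted p = 0.417 by edgeR). The log2 change had the same sign in both lines for 27 of 34 members, 17 positive and 10 negative, where it did for 67.6% of all genes.

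The genes around the hnRNPs in splicing were followed on lists of 14 SR proteins, 16 NMD and exon junction factors, 16 early spliceosome genes and 18 other splicing regulators. SR proteins bind exonic enhancers and often oppose hnRNPs. At 2 h 0 genes of the lists passed in either line by edgeR's quasi-likelihood test. At an unadjusted p below 0.05 there were 3 genes of the lists in U87 mg, all NMD factors, where 8.78% of all genes had one. In DAOY there were 0, where 2.75% of all genes had one. At 8 h in U87 mg, SRSF5 fell from 302 ± 13.1 to 193 ± 8.48 TPM (log2 change -0.58 ± 0.11), UPF2, a core NMD factor, rose from 26.2 ± 3.12 to 42.5 ± 6.41 (0.77 ± 0.15), and SFPQ, a paraspeckle protein, rose from 296 ± 35.2 to 458 ± 83.8 (0.71 ± 0.15). That made 1 of 13 SR proteins tested, 1 of 16 NMD factors, 0 of 16 early spliceosome genes and 1 of 18 other regulators, where 1.72% of all genes passed. An unadjusted p below 0.05 was found for 4, 7, 1 and 9 genes, in the same order of lists, where 15.9% of all genes had one. In DAOY at 8 h, UPF2 rose from 20.96 ± 2.065 to 30.7 ± 1.32 TPM (0.60 ± 0.15) and SFPQ from 451 ± 28.9 to 777 ± 183 (0.79 ± 0.19). SRSF11 and CELF1 also rose (0.90 ± 0.16 and 0.61 ± 0.12), while SRSF8, the cold-inducible CIRBP and the exon junction core protein RBM8A fell (-1.07 ± 0.15, -1.07 ± 0.16 and -0.56 ± 0.13). These were 2 of 14 SR proteins, 2 of 16 NMD factors, 0 of 16 early spliceosome genes and 3 of 18 other regulators, where 5.85% of all genes passed. An unadjusted p below 0.05 was found for 4, 8, 2 and 5 genes of these lists, where 22.7% of all genes had one. SRSF8 is an intronless relative of SRSF2, so its reads may be shared.

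Between the lines at 0 h, 7 of 14 SR proteins and 7 of 16 early spliceosome genes passed, all 14 of them higher in DAOY. SRSF8 (log2 difference 2.09 ± 0.16), SRSF12 (4.47 ± 0.65), SRSF3 (0.98 ± 0.15) and SRSF7 (0.73 ± 0.18) had the smallest adjusted p of the SR proteins, and SNRPC, a U1 protein, SNRPB2, SF3A3 and SF3B1 of the spliceosome list (0.99 ± 0.12, 1.06 ± 0.16, 0.83 ± 0.13 and 0.70 ± 0.16). The level of SRSF12 was low in both lines, with means of 1.48 TPM in DAOY and 0.0383 in U87 mg (SD 0.641 and 0.0435). NMD factors split evenly, with 4 higher (RNPS1 at 1.12 ± 0.16 among them) and 4 lower, of which UPF3A (-1.89 ± 0.13) and MAGOHB (-2.50 ± 0.18) had the smallest adjusted p. Of the other regulators, 9 were higher and 3 lower in DAOY. Among the lower, RBFOX2 and MSI2 were so in count sums alone (log2 differences -0.41 ± 0.12 and -0.61 ± 0.14). Their mean TPM values in DAOY and U87 mg were 68.9 and 63.9 for RBFOX2, and 34.1 and 34.3 for MSI2. PSPC1 and CIRBP were higher by 1.53 ± 0.16 and 1.12 ± 0.15, and MBNL2 was lower by 1.88 ± 0.22. All of these are read against the 60.7% of all genes that differed between the lines.

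Shares of counts in NMD transcripts could be tested for 14 members, those with at least 10 counts on average both in and outside the class. Over the 37 members together, NMD transcripts held from 3.51% to 4.80% of counts in U87 mg and from 3.40% to 4.14% in DAOY. Reads that fit more than 1 transcript were split between them in the estimated counts. Among 1073 pairs of a member's transcript and a group in which some replicate reached 50 counts, 12.2% fell under 1 count in a different replicate, which happened in 0 of 198 such pairs of gene sums. The shares therefore carry a larger error than the sums, and NMD transcripts that are degraded quickly are counted at what is left of them.

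The NMD share was highest in TARDBP, HNRNPLL, HNRNPD and TAF15. For TARDBP it stayed within 35.3% and 41.5% in all 18 samples, so that at 8 h in DAOY, when the gene sum was 1.57-fold higher, the share was 38.8% ± 2.41 against 39.4% ± 1.18 at 0 h (SD, n = 3). The log2 change of its ratio of NMD to other counts was -0.04 ± 0.22 in DAOY and 0.00 ± 0.21 in U87 mg at 8 h. For HNRNPD the share at 0 h was 34.3%, 27.2% and 35.6% in U87 mg and 18.8%, 24.2% and 27.8% in DAOY, with overlap, and the difference did not pass (log2 ratio difference -0.64 ± 0.28, adjusted p = 0.318 by limma). For HNRNPLL, whose NMD transcript has a stop of its own, the share in U87 mg was 41.9%, 31.1% and 27.6% at 0 h and 44.7%, 45.5% and 57.4% at 2 h. The 2 h samples all lay above the 0 h samples, and the change of 0.96 ± 0.31 had an adjusted p of 0.696 by limma.

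By limma with Benjamini-Hochberg adjustment, 0 of 14 members passed for the NMD share in any comparison. Of all genes tested, 0.136% passed at 2 h and 0.0% at 8 h in U87 mg, 0.0% at both times in DAOY and 2.64% between the lines at 0 h. At an unadjusted p below 0.05 there were 1, 1, 0, 0 and 2 members, in the same order, where 6.52%, 5.12%, 4.98%, 6.75% and 14.7% of genes had one. EdgeR on the NMD counts themselves called 0 members and 0.0% of genes in the 4 comparisons of time. Between the lines it called 12.7% of genes and 1 of 14 members, HNRNPA2B1, whose NMD transcript has the coding stop and a spliced end. Its share was 3.75%, 2.86% and 3.36% in U87 mg at 0 h and 7.06%, 5.85% and 5.97% in DAOY, without overlap. The difference in log2 ratio was 0.97 ± 0.37 (adjusted p = 0.234 by limma), and in the NMD counts a log2 difference of 1.44 (adjusted p = 1.23e-04 by edgeR), a value that also holds the higher sum of the gene in DAOY.

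**Figure D4:**
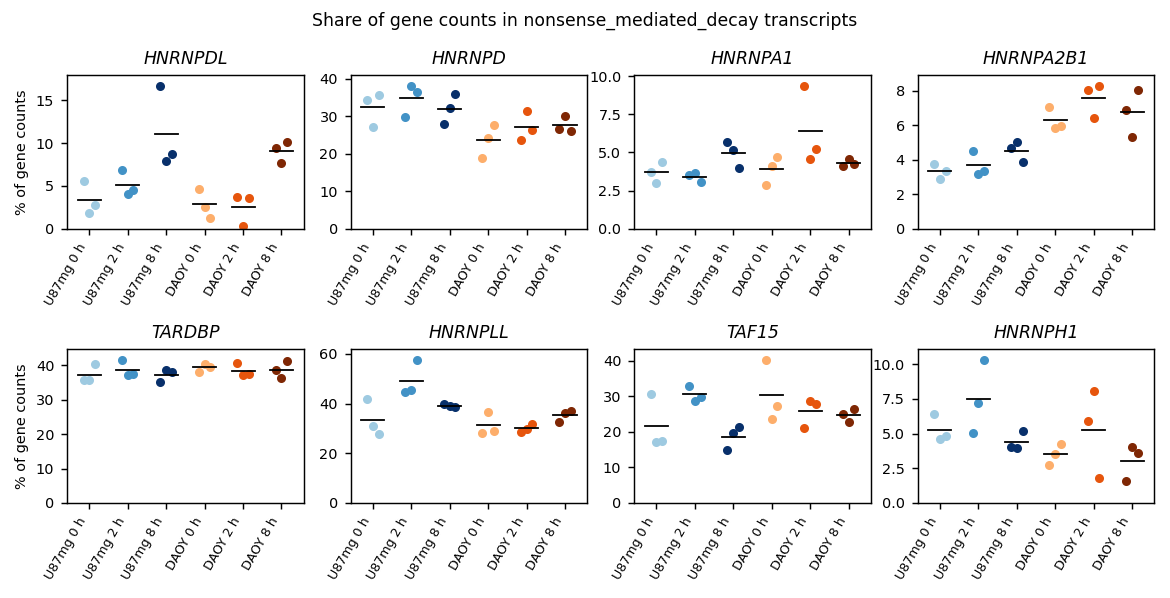
Percent of each gene's counts in nonsense_mediated_decay transcripts in each sample (points), with the mean of the 3 replicates as a line, for 8 members in the 6 groups. HNRNPDL is higher at 8 h in both lines (11.1% and 9.07%, against 3.38% and 2.83% at 0 h), and TARDBP stays between 35.3% and 41.5%.

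HNRNPDL had the smallest adjusted p at 8 h in both lines without passing in either. In U87 mg its NMD share was 5.58%, 1.85% and 2.71% at 0 h, 6.85%, 4.07% and 4.53% at 2 h and 16.7%, 7.91% and 8.74% at 8 h. In DAOY it was 4.66%, 2.57% and 1.26% at 0 h, 3.71%, 0.258% and 3.55% at 2 h and 9.41%, 7.65% and 10.2% at 8 h. In both lines the 8 h samples lay above all 0 h and 2 h samples of that line. The changes in log2 ratio were 1.906 ± 0.59 in U87 mg (adjusted p = 0.755 by limma) and 1.956 ± 1.101 in DAOY (adjusted p = 0.763 by limma). The transcript shown above that keeps the coding stop, ENST00000630114, held most of it at 8 h, with 6.50% to 16.7% of the gene's counts in U87 mg and 4.38% to 8.93% in DAOY. At 0 h it was nearly absent in 1 U87 mg library (0.00175 counts) and had 174.9 counts in another. Of the 14 members, 3 had all 8 h samples above all 0 h samples in U87 mg (HNRNPA2B1, HNRNPDL and HNRNPUL1, background 6.07% of genes) and 3 in DAOY (HNRNPDL, HNRNPUL1 and PCBP2, background 8.8%). In the other direction, 1 member had all 8 h samples below in U87 mg (HNRNPK, background 5.25%) and 0 in DAOY (background 4.45%).

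The other NMD shares that the rule for naming selects did not pass the test either. TAF15 in U87 mg at 2 h had shares of 30.7%, 17.1% and 17.5% at 0 h and 32.9%, 28.8% and 29.8% at 2 h, overlapping through replicate 0 of 0 h (adjusted p = 0.747 by limma). HNRNPUL1 in U87 mg had 0%, 0.499% and 0.352% at 0 h and 1.97%, 0.508% and 0.580% at 8 h (adjusted p = 0.963 by limma). HNRNPA1 in DAOY had 2.88%, 4.12% and 4.70% at 0 h and 9.36%, 4.58% and 5.26% at 2 h (adjusted p = 0.923 by limma). TIA1 in DAOY had 2.70%, 3.13% and 0.342% at 0 h, 2.40%, 3.99% and 3.22% at 2 h and 3.00%, 4.09% and 3.83% at 8 h (adjusted p = 0.935 at 2 h and 0.808 at 8 h by limma).

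Retained-intron transcripts held a larger part of the members' counts, 6.95% to 8.29% in U87 mg and 6.32% to 11.6% in DAOY, than of all genes' counts, 2.71% to 2.98% and 2.51% to 3.81%. In the DAOY samples the members' share was 9.96%, 7.79% and 7.60% at 0 h, 6.32%, 8.27% and 8.92% at 2 h and 9.11%, 11.6% and 11.0% at 8 h. The 8 h group overlapped the 0 h group through replicate 0 of 0 h. Some members had a large share in every sample, among them HNRNPU (31.2% to 50.3%), HNRNPL (26.3% to 45.2%), HNRNPH1 (21.8% to 42.0%) and EWSR1 (17.8% to 67.0%). Short retained-intron models share exons with coding transcripts, so a share depends on how reads were divided between them. Of the members' 94 transcripts of this class, 38 held a whole intron of a protein-coding transcript inside an exon. The most abundant of HNRNPL (ENST00000595804, 27.7% of the gene's counts on average) and of HNRNPC (ENST00000553444, 18.5%) held no such intron. Large shares of these genes therefore do not show that introns were kept.

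EWSR1, a FET protein (chr22:29268009-29300525, plus strand), carried its retained-intron counts mainly in a pair of transcripts that keep different introns. The windows below span the 5' splice sites of these introns, with 10 exon bases, the intron's first bases GT in capitals and the following 18 intron bases, read from the transcripts that keep the intron.

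EWSR1 ENST00000483415: gtggaatgggGTaagagcaaaccttttctc
EWSR1 ENST00000469669: aagcctggtgGTaagtttttgagtattacc

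The first intron lay at chr22:29288787-29290412 (1626 bases) and the second at chr22:29291600-29292136 (537 bases). In DAOY, ENST00000483415 held 9.75% to 15.7% of the gene's counts at 0 h and 21.1% to 31.1% at 8 h, and ENST00000469669 held 8.32% to 16.4% at 0 h and 20.7% to 32.4% at 8 h. For both transcripts the 8 h samples lay above the 0 h samples. Reads inside the introns themselves were not counted. In U87 mg the ranges overlapped, at 14.8% to 18.9% and 14.4% to 18.5% for the first transcript, and at 12.4% to 18.6% and 16.6% to 17.97% for the second.

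For the whole retained-intron class, EWSR1 had shares of 36.1%, 23.9% and 20.1% at 0 h, 17.8%, 31.2% and 38.8% at 2 h and 44.1%, 67.0% and 53.5% at 8 h in DAOY. The 8 h samples lay above the others, and the change in log2 ratio was 1.79 ± 0.54 (adjusted p = 0.222 by limma). In U87 mg the shares were 41.8%, 33.1% and 28.1% at 0 h and 33.1%, 37.8% and 37.0% at 8 h, with overlap (log2 ratio change 0.12 ± 0.31). The difference of the 8 h changes between the lines, DAOY minus U87 mg, was 1.67 ± 0.64 and did not pass (adjusted p = 0.452 by limma). EWSR1 was among the members in which replicate 0 of 0 h stood apart in its sum.

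By limma with Benjamini-Hochberg adjustment, 0 of 14 members tested passed for the retained-intron share in any comparison. Of all genes tested, 0.0% passed at both times in U87 mg, 0.144% at 2 h and 0.108% at 8 h in DAOY and 3.28% between the lines at 0 h. At an unadjusted p below 0.05 there were 0, 1, 0, 4 and 3 members, where 7.2%, 7.23%, 5.48%, 12.2% and 17.9% of all genes had one. EdgeR on the class counts called 0, 0, 0, 0 and 4 members, where it called 0.0% of genes in the comparisons of time and 17.8% between the lines. These 4 were HNRNPC, HNRNPU and PCBP2, with more retained-intron counts in DAOY and also higher gene sums there, and TAF15, with fewer. In DAOY at 8 h, 12 of 14 members had a positive change, with a median of 0.75 on the log2 scale, and so did 68.0% of all 2776 genes tested, with a median of 0.37. In 8 of the 14 members the 8 h samples lay above all 0 h samples (EWSR1, HNRNPA1, HNRNPA2B1, HNRNPD, HNRNPH1, PCBP2, TAF15 and TIAL1), where 18.7% of all genes did, and in 0 of the 14 below, where 3.35% did. In U87 mg at 8 h the median was 0.06 over the members and -0.06 over all genes, and 1 member lay above and 1 below without overlap (5.55% and 7.95% of all genes).

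HNRNPD had the smallest adjusted p of the DAOY members at 8 h. Its share was 1.58%, 1.959% and 0.974% at 0 h and 3.88%, 5.02% and 3.35% at 8 h, so that the groups were apart (log2 ratio change 1.51 ± 0.44, adjusted p = 0.215 by limma). TIAL1 had 4.30%, 6.82% and 3.13% at 0 h and 12.1%, 18.8% and 9.27% at 8 h (1.63 ± 0.50, adjusted p = 0.224 by limma). HNRNPH1 had 29.9%, 24.3% and 25.0% at 0 h and 32.2%, 42.0% and 39.8% at 8 h (0.77 ± 0.35, adjusted p = 0.423 by limma). For HNRNPU, HNRNPL and HNRNPC, which also had large shares, the 8 h change in DAOY was between -0.10 and 0.07 on the log2 scale, with SE up to 0.37.

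**Figure D5:**
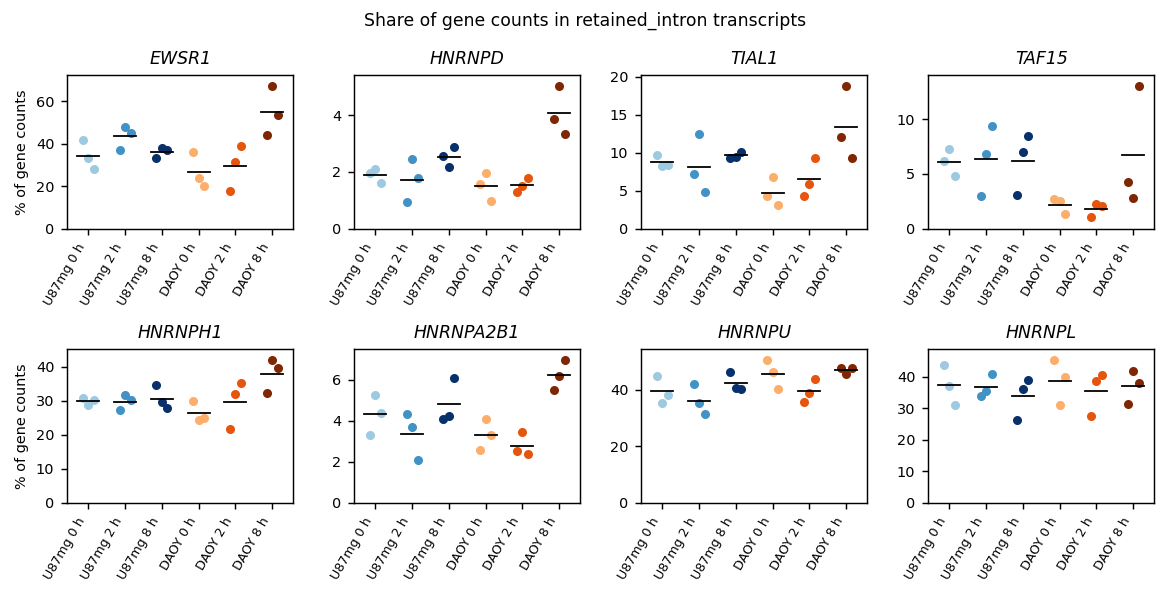
Percent of each gene's counts in retained_intron transcripts in each sample (points), with the mean of the 3 replicates as a line, for 8 members in the 6 groups. In DAOY the 8 h points of EWSR1 (44.1% to 67.0%), HNRNPD, TIAL1, HNRNPH1 and HNRNPA2B1 lie above all 0 h points, and those of HNRNPU and HNRNPL overlap with 0 h.

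None of the other members with the smallest adjusted p for this share passed the test. In U87 mg at 2 h these were EWSR1 (36.9%, 47.9% and 45.2% against the 0 h values above, adjusted p = 0.703 by limma) and PTBP1 (adjusted p = 0.712 by limma), and at 8 h HNRNPA1, with 0.424%, 0.261% and 0.233% at 0 h and 0.118%, 0.0924% and 0.0386% at 8 h (adjusted p = 0.590 by limma), and PTBP1 (adjusted p = 0.810 by limma). In DAOY at 2 h they were HNRNPK, with 7.04%, 3.82% and 4.85% at 0 h and 2.48%, 3.05% and 3.24% at 2 h (adjusted p = 0.884 by limma), and HNRNPU (adjusted p = 0.892 by limma). Between the lines at 0 h, they were HNRNPA1 and TAF15, both with lower shares in DAOY. Without overlap, 3 members were lower in DAOY (HNRNPA1, TAF15 and TIAL1), where 13.8% of all genes were. PCBP2 was the 1 member higher without overlap, where 9.14% of all genes were. TAF15 had 6.16%, 7.24% and 4.78% in U87 mg and 2.74%, 2.52% and 1.34% in DAOY (log2 ratio difference -1.54 ± 0.63, adjusted p = 0.217 by limma), and HNRNPA1 had a difference of -1.61 ± 0.65 (adjusted p = 0.214 by limma).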

How the data were processed

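The authors assigned single-end reads of poly-A selected, stranded libraries with Kallisto 0.43.0 to GENCODE 24 transcripts and deposited, per transcript and sample, estimated counts and TPM values, with p-values, q-values and log2 fold changes of their Sleuth comparisons, which were not used here. Whether Kallisto's strand option was set is not given in the sources used here, so overlapping genes on opposite strands are uncertain.

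From the deposited estimated counts, sums per gene name were rounded, filtered with filterByExpr, scaled by TMM and tested with edgeR 4.0.16 (glmQLFit and glmQLFTest, R 4.3.3), with 9 samples per line for the times and all 18 for the lines and the interaction. Members were called at an FDR below 0.05, adjusted over all genes. The 2-fold criterion of the study was an alternative. TPM sums are shown as levels. For shares, log2 of (class counts + 0.5) over (other counts + 0.5) was tested with limma 3.58.1 for genes with a mean of at least 10 counts in both parts. The 37 members, the 4 lists and the rule for naming genes were chosen with earlier results of these data known. The rule took, per comparison, up to 5 members past the threshold in each direction or else the 2 with the smallest adjusted p, the most abundant member of each role group and up to 4 genes per list. Members named beyond it, and the 8 members in each plot of shares, were chosen after their values were seen. Alternatives were DESeq2 1.42.0, limma on log2(TPM + 1) and log2(TPM + 0.1), other scalings and filters, protein-coding transcripts alone, other sets of samples and each replicate left out. The comparison of the lines at 2 h and 8 h, the readthrough added to HNRNPUL2 and the interaction of the shares were added after the data were seen. Transcript identifiers linked the table to GENCODE 29 (GRCh38), the source of the sequences and positions. Some items that the rule for naming selects are not reported here. Scripts were tested on simulated data.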

Additional observations from a re-analysis of the deposited data

How the results depend on the processing

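The count of members called in DAOY at 8 h was 1. It was 2 with DESeq2, with limma on log2(TPM + 1) or log2(TPM + 0.1) and with upper quartile scaling, 3 with library totals alone, 4 with all 18 samples in one fit, and 0 with the 6 samples compared or with the 2-fold criterion, where the cause is the size of the change. Leaving out single replicates gave 0 to 1 there, 0 to 2 in U87 mg at 2 h, 0 to 1 in U87 mg at 8 h and 19 to 23 between the lines. The shares of all genes called in those fits were not counted. In U87 mg at 8 h, 1 member (PTBP1) was called with DESeq2 and with no filter on low counts. Between the lines, 5 of 21 members met the 2-fold criterion, and the other alternatives gave 16 to 25. EdgeR on the class counts called 1 member for the NMD share and 4 for the retained-intron share between the lines, against 0 and 0 for the ratios. For other counts that moved, the cause was not tested. Without TMM, library totals alone moved the median log2 difference of all genes between the lines from 0.05 to 0.15, with 21 members higher and 3 lower, and turned the balance of the members' signs in DAOY at 8 h from 19 positive and 15 negative to 14 and 20, while the median of all genes there moved from -0.01 to -0.11.

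With the replicate number as a block, 0 members were called in DAOY at 8 h (TARDBP, adjusted p = 0.0617 by edgeR) and 16 between the lines, where RALY, HNRNPL, HNRNPLL, HNRNPUL2 and TAF15 were lost (adjusted p = 0.0575 to 0.420 by edgeR), and no other count of members changed. The numbers were not taken to pair the samples. Correlations of same-numbered samples' deviations ran from -0.348 to 0.679 within a line, with 8 of 18 over 0.1, from -0.518 to 0.695 between the lines, with 11 of 27 over 0.1, and from 0.0627 to 0.695 between the lines at 0 h, with 2 of 3 over 0.1. Within a line, in 14 of 36 comparisons with another group a sample correlated best with its own number. None of the 39 results that the rule for naming selects changed sign under the alternatives run on them. Counts carry no molecular identifiers, and transcript shares with few counts limit what could be detected.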
